A study of Mus musculus with 768 samples.

Results

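Kremen1, Lypd1, Mfge8, Spon1, Fbn2, Gpc6, Vcan and Spint1 encode proteins that a cell secretes or holds on its surface, and they are described here in single nuclei of the mouse striatum. The 8 genes, of 24489 genes in the joint count table of striatal nuclei, were chosen by name from an earlier reading of the same values, in which their reads differed between 2 plates of nuclei. The level of each gene in one plate against the other, and any other measure from that contrast, is therefore a description and supports nothing. The question asked here is whether the 8 genes were found in the same nuclei: across D1 and D2 spiny neurons, within each plate and between plates, at an equal number of reads per nucleus.

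The nuclei came from untreated C57BL/6 mice that carried an allele named H2BG together with 1 of 2 Cre drivers. Oprm1-Cre follows the gene of the mu opioid receptor and was chosen by the study to include patch neurons. Slc32a1-Cre follows the gene of the vesicular GABA transporter and was chosen to take in GABAergic neurons. Each driver gave 1 plate, 768 wells in all, with 1 nucleus per well, and no label names an animal, so each genotype is 1 sample and nuclei are not replicates. No test was made, and the intervals below cover counting error only. Genotype, plate, animals and sex cannot be told apart: reads of Y-linked genes were found in 91.6% of the Oprm1-Cre D1-like nuclei and in none of the Slc32a1-Cre ones, and Xist in 2.34% and 71.1%. A Cre driver marks any cell in which its promoter was active at some time, so neither plate is a pure class of cells.

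Of the 768 wells, 736 passed a minimum of 1000 genes and 20000 reads. Reads on genes ranged from 22727 to 581313 per nucleus, and the plates had medians of 169398 (Oprm1-Cre) and 175337 (Slc32a1-Cre). Nuclei of clusters with spiny neuron markers were split by 7 D1 and 7 D2 markers. This gave 493 D1-like nuclei, 60.6% of them from the Oprm1-Cre plate, and 170 D2-like nuclei, of which only 23 came from that plate. The classes held their defining genes: Drd1, listed as Drd1a, stood at 1830 and 2160 CPM (reads per 1000000 reads on genes) in the D1-like nuclei of the 2 plates and at 0.747 and 15.6 CPM in the D2-like nuclei. Penk stood at 15351 and 17369 CPM in D2-like nuclei and at 139.2 and 130.6 CPM in D1-like nuclei. A further 23 and 17 nuclei of the same clusters had D1 and D2 scores too close to be split. They are called undecided and were kept apart from both classes. Their mean spiny marker scores were 4.91 and 6.51, against 8.66 to 9.16 in the D1-like and D2-like nuclei. Another 10 and 23 nuclei lay in a cluster with interneuron genes that was left unnamed. Sst and Npy reads were not confined to that cluster: the 13 interneuron markers summed to 47.7 CPM in the Oprm1-Cre D1-like nuclei and 492 CPM in the Slc32a1-Cre ones, and their part in the values below was not tested.

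The striatum is built of patches, or striosomes, set in a larger matrix, and both hold D1 neurons of the direct pathway and D2 neurons of the indirect pathway. The compartments are known for different surface and extracellular molecules, the mu opioid receptor in patches and calbindin in the matrix among them. Of the 8 proteins, 4 are secreted. Mfge8 is a milk fat globule protein that bridges phosphatidylserine to integrins, Spon1 (F-spondin) is a matrix protein with thrombospondin repeats known in axon guidance, Fbn2 is a fibrillin of microfibrils, and Vcan (versican) is a large chondroitin sulphate proteoglycan. The other 4 sit on the cell surface. Kremen1 is a receptor for the Wnt antagonists of the Dickkopf family, Lypd1 is a lipid-anchored protein of the Ly6 family that acts on nicotinic receptors, Gpc6 is a lipid-anchored heparan sulphate proteoglycan, and Spint1 is a membrane-bound inhibitor of serine proteases.

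As a description, promoters are shown for 4 genes of the RefSeq promoter table used here (GRCm38.p6): Lypd1, Mfge8, Vcan and Spint1. That table held no entry for Kremen1, Spon1 and Gpc6, and Fbn2 was left out by choice and not searched. Whether promoters have a part in the detection of these genes together was not tested. Each window is the 250 bases before the RefSeq start, read 5′ to 3′ on the gene's own strand, and for Lypd1 only the 77 bases outside the gene model are printed. Capitals mark GC boxes, that is the letters GGGCGG or their complement on the other strand.
Lypd1, chr1:125913102-125913178, minus strand: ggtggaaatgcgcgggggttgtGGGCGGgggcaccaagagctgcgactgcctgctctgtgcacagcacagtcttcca
Mfge8, chr7:79149061-79149310, minus strand: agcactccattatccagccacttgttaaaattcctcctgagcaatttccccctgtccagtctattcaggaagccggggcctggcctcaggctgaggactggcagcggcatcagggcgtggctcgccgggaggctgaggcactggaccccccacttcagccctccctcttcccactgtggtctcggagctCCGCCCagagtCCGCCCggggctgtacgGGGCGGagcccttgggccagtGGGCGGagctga
Vcan, chr13:89742513-89742762, minus strand: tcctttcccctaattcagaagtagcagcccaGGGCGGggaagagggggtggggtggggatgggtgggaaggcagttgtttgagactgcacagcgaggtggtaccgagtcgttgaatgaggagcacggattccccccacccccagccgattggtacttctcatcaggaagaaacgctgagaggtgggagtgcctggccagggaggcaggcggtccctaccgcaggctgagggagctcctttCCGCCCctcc
Spint1, chr2:119237110-119237359, plus strand: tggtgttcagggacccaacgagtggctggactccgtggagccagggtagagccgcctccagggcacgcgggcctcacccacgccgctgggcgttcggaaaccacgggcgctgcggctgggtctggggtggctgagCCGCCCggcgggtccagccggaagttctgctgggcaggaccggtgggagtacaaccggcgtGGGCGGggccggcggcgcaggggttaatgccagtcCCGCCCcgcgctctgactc

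All 4 windows held a GC box: 1 for Lypd1, 4 for Mfge8, 2 for Vcan and 3 for Spint1. Among all 32851 windows of the same length in the table, 32.7% held at least 1. The windows were 57.6% (Lypd1), 65.2% (Mfge8), 62.4% (Vcan) and 72.8% (Spint1) G or C, against a mean of 53.2% over all windows. The letters CCAAT, searched on both strands, occurred 2 times in the Lypd1 window and 1 time in the Vcan window, and in 33.8% of all windows. On either strand, none of the 4 windows held the TATA box TATAAA, the E-box of the form CAGCTG, the cyclic AMP half-site TGACG, the activator protein site TGANTCA or the Nr4a site AAAGGTCA. Of all windows, 1.34% (the Nr4a site) to 17.8% (the cyclic AMP half-site) held one of these. Of the motifs searched, the GC box was the one found in all 4 windows. A match is a string of letters and not a known site.

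In the GENCODE vM21 annotation of GRCm38, the genes lie on 7 chromosomes, with Mfge8 and Spon1 both on chromosome 7. Kremen1 spans chr11:5191552-5261558, Lypd1 chr1:125867622-125913101, Mfge8 chr7:79133768-79149060, Spon1 chr7:113765998-114043370, Fbn2 chr18:58008623-58210487, Gpc6 chr14:116925315-117976544, Vcan chr13:89655312-89742509 and Spint1 chr2:119237362-119249527. Their spans run from 12.2 kb for Spint1 to 1051 kb for Gpc6. Exons of Lypd1 overlap those of Gpr39 on the opposite strand, and the sources used here do not say that strand was used in counting, so reads of these 2 genes cannot be told apart there. Values are reads per gene and depend on transcript length: per kb of exon, Spint1 (42.4 CPM per kb) and Mfge8 (30.7) had the highest levels in the Oprm1-Cre D1-like nuclei and Fbn2 (2.48) the lowest. The other 5 genes lay between 4.86 (Vcan) and 10.5 CPM per kb (Spon1).

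Summed over nuclei, each of the 8 genes stood higher in the Oprm1-Cre D1-like nuclei than in the other 3 groups of D1-like and D2-like nuclei. Outside these groups some stood higher still: Lypd1 at 125.1 CPM and Spon1 at 257.3 CPM in the 10 unnamed Oprm1-Cre nuclei, and Gpc6 at 163.2 CPM in the 23 undecided ones. Fbn2 stood at 37.1 CPM (31.2 to 43.7) in the undecided Oprm1-Cre nuclei, an interval that overlaps that of the D1-like ones. Among the secreted proteins, Mfge8 stood at 144.2 CPM in the Oprm1-Cre D1-like nuclei (95% Poisson interval 141.1 to 147.4, 1 plate). It stood at 28.1 CPM (23.2 to 33.8) in the 23 Oprm1-Cre D2-like nuclei, at 64.6 CPM (61.98 to 67.3) in the Slc32a1-Cre D1-like nuclei and at 56.02 CPM (53.4 to 58.8) in the Slc32a1-Cre D2-like nuclei. Spon1 stood at 108.5, 38.1, 35.1 and 69.3 CPM in the same order. Summed reads of Spon1 were thus higher in the D2-like than in the D1-like class of the Slc32a1-Cre plate (66.3 to 72.4 against 33.1 to 37.1 CPM). These intervals leave out the spread between nuclei: 10 nuclei held 84.2% of the D2-like and 85.9% of the D1-like reads. At an equal number of reads per nucleus, the shares of nuclei with Spon1 overlapped, at 13.6% (8.51 to 20.2) and 10.9% (6.86 to 16.2). Vcan stood at 70.3, 23.6, 22.6 and 28.6 CPM. Outside the Oprm1-Cre D1-like nuclei its levels lay between 22.6 and 28.6 CPM.

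Fbn2 had most of its reads in the Oprm1-Cre D1-like nuclei, 1802 in all (32.7 CPM, 31.2 to 34.3), 5 reads in 1 Oprm1-Cre D2-like nucleus (1.24 CPM), 75 reads in the Slc32a1-Cre D1-like nuclei (2.12 CPM) and 0 reads of 29488636 in the Slc32a1-Cre D2-like nuclei, which at a floor of 3 reads allows up to 0.102 CPM. A single nucleus held 81.3% of the 75 reads.

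Of the surface proteins, Kremen1 stood at 71.7 CPM in the Oprm1-Cre D1-like nuclei, 14.9 CPM in the D2-like nuclei of that plate, and 19.7 and 23.4 CPM in the Slc32a1-Cre D1-like and D2-like nuclei. Lypd1 stood at 42.9, 8.96, 11.9 and 10.7 CPM in the same order, and its intervals in the 3 lower groups overlapped. Gpc6 stood at 38.2, 3.24, 5.42 and 2.31 CPM. Spint1 stood at 117.3, 9.71, 41.2 and 21.6 CPM, and all 39 of its Oprm1-Cre D2-like reads came from 1 nucleus. The plot of summed levels shows the 4 groups side by side for each gene.

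**Figure D1:**
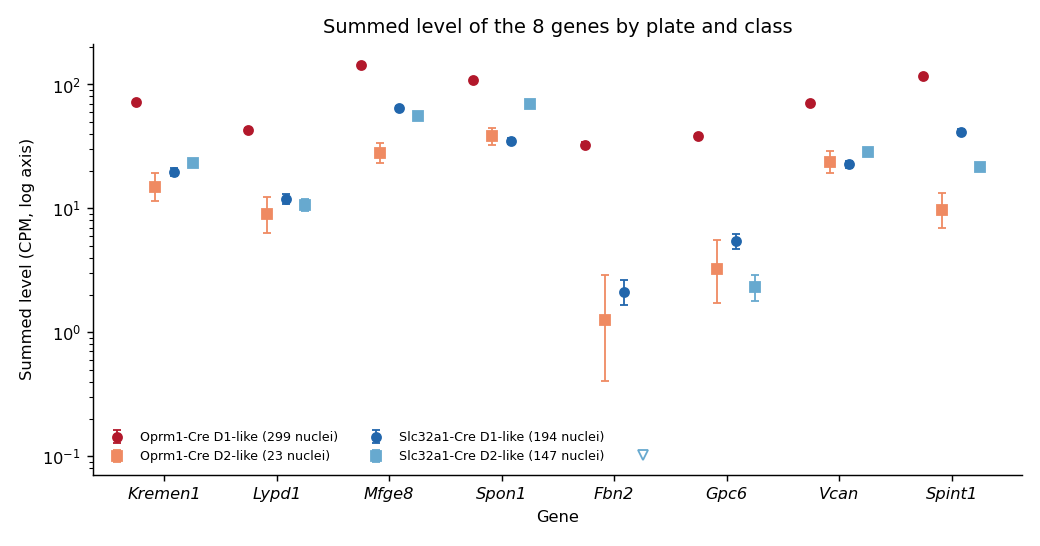
Summed level of each gene in CPM (log axis) in D1-like (circles) and D2-like (squares) nuclei of the Oprm1-Cre (red) and Slc32a1-Cre (blue) plates, with 95% Poisson intervals. The open triangle is the limit of 0.102 CPM (3 reads) for Fbn2, which had 0 reads, and each gene's highest point is the Oprm1-Cre D1-like one.

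The same order appears in the log2 ratio between plates, taken with 5 CPM added to both levels so that low genes are not inflated. In D1-like nuclei the Oprm1-Cre plate exceeded the Slc32a1-Cre plate by more than 1 (log2) for 8 of 8 genes, where 2.85% of 11031 genes with at least 5 CPM did so. The genes were chosen on this contrast, so nothing is read from that count. The ratios were 2.41 for Fbn2, 2.05 for Gpc6, 1.64 for Kremen1, 1.503 for Spon1, 1.501 for Lypd1, 1.45 for Vcan, 1.41 for Spint1 and 1.10 for Mfge8. With 20 CPM added, Lypd1 (0.98) and Mfge8 (0.96) no longer passed 1, and Mfge8 stood at 0.99 with each nucleus classed by its own scores.

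D2-like nuclei did not repeat the difference between plates. Of the 6 genes with at least 5 CPM there, 0 were past 1 in the direction of the Oprm1-Cre plate and 0 in the other, where 9.16% and 15.1% of 10922 genes were. The 6 ratios were all below 0, from -0.17 for Lypd1 to -0.88 for Mfge8. Fbn2 (0.32) and Gpc6 (0.17), under 5 CPM in both groups, were above 0. The Oprm1-Cre side rests on 23 nuclei, and the reads of a gene came from 1 nucleus (Fbn2 and Spint1) to 6 nuclei (Gpc6). With each nucleus weighed alike the ratio of Vcan was 0.56 and that of Spint1 0.10. Fewer nuclei with a gene and fewer reads per nucleus cannot be told apart from these sums, and the shares below take them separately. At equal depth the D2-like shares were not lower in the Oprm1-Cre plate for Mfge8 (21.7% and 21.1%), Lypd1 (13.04% and 10.9%) and Kremen1 (8.70% and 8.16%). The same held for Spon1 (21.7% and 13.6%), Gpc6 (13.04% and 4.08%) and Fbn2 (4.35% and 0%). They were lower for Vcan (8.70% and 11.6%) and Spint1 (4.35% and 6.80%).

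Within the Slc32a1-Cre plate, where D1-like and D2-like nuclei share plate and animals, 0 of 7 genes were past 1 toward D1-like nuclei and 0 toward D2-like nuclei (3.67% and 1.97% of 10903 genes were). Spint1 came nearest at 0.80, and it reached 1.07 without the nucleus with most reads in each class. Gpc6 stood at 0.51, Mfge8 at 0.19, Lypd1 at 0.11, Kremen1 at -0.20, Vcan at -0.28 and Spon1 at -0.89. Within the Oprm1-Cre plate all 8 genes were past 1 toward D1-like nuclei, from 1.39 for Vcan to 3.06 for Spint1. There 17.2% of 11085 genes were past 1 in that direction and 6.77% in the other, and these ratios use the same Oprm1-Cre D1-like nuclei as the contrast on which the genes were chosen. The Vcan ratio was 0.91 when each nucleus weighed alike.

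Nucleus by nucleus, the genes were either present or at 0. In the 4 groups of D1-like and D2-like nuclei the lowest and the median nucleus held 0 reads of every gene, with 1 exception: the median Oprm1-Cre D1-like nucleus held 7.89 CPM of Lypd1. The highest nucleus among Oprm1-Cre D1-like nuclei held 993 CPM of Kremen1, 556 of Lypd1, 1622 of Mfge8, 1555 of Spon1, 968 of Fbn2, 1048 of Gpc6, 2238 of Vcan and 2138 of Spint1. The 10 nuclei with most reads of a gene held 26.4% (Mfge8) to 55.1% (Fbn2) of that gene's reads in this group, against 57.1% (Lypd1) to 100% (Fbn2) in the Slc32a1-Cre D1-like nuclei.

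To count nuclei at equal depth, each nucleus was thinned at random to 50000 reads. This left 490 D1-like and 170 D2-like nuclei, with 3 too shallow to use. Mfge8 was found in 45.1% (exact binomial 95% interval 39.4 to 50.97) of the Oprm1-Cre D1-like nuclei, 21.7% of the D2-like nuclei of that plate, and 19.7% (14.3 to 26.01) and 21.1% (14.8 to 28.6) of the Slc32a1-Cre D1-like and D2-like nuclei. The last 2 shares could not be told apart at this depth. Lypd1 was found in 43.4%, 13.04%, 19.7% and 10.9% in the same order, Kremen1 in 36.7%, 8.70%, 12.4% and 8.16%, and Spint1 in 35.7%, 4.35%, 13.99% and 6.80%.

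The other 4 genes were found in fewer nuclei. Spon1 was found in 26.3%, 21.7%, 10.9% and 13.6% of the same groups, Gpc6 in 22.9%, 13.04%, 6.22% and 4.08%, Vcan in 22.6%, 8.70%, 10.9% and 11.6%, and Fbn2 in 18.9%, 4.35%, 1.04% and 0%. The count of 0 nuclei for Fbn2 allows a share of up to 2.04% at a floor of 3 nuclei. The intervals of the Oprm1-Cre and Slc32a1-Cre D1-like nuclei did not overlap for any of the 8 genes, which were chosen on that difference, while those of the 23 Oprm1-Cre D2-like nuclei were wide (7.46% to 43.7% for Mfge8 and Spon1). Without thinning the shares in the Oprm1-Cre D1-like nuclei were 53.2% for Lypd1, 47.8% for Mfge8, 40.1% for Kremen1, 37.1% for Spint1, 28.8% for Spon1, 28.1% for Gpc6, 25.1% for Vcan and 21.4% for Fbn2.

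**Figure D2:**
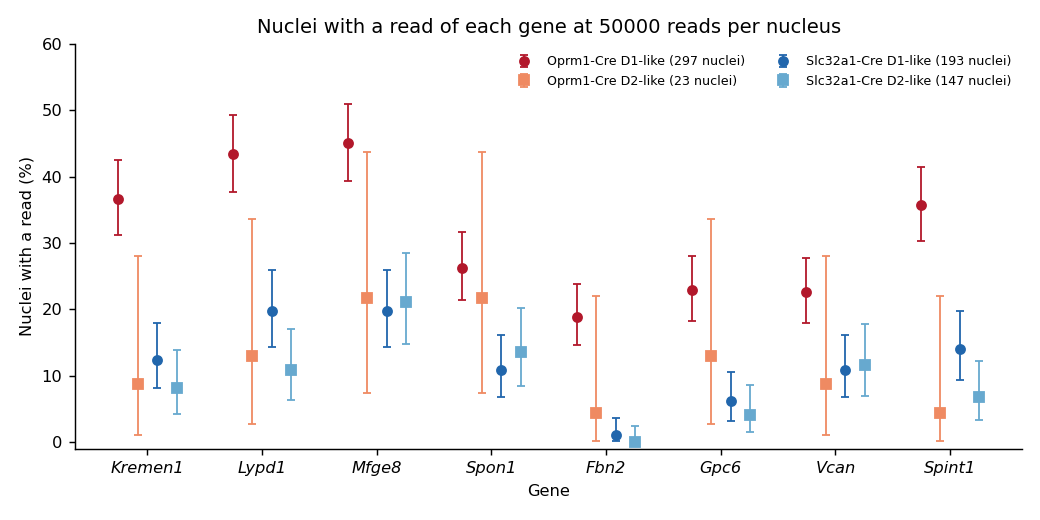
Share of nuclei (%) with at least 1 read of each gene after thinning to 50000 reads per nucleus, with exact binomial 95% intervals, in the same 4 groups. The Oprm1-Cre D1-like shares run from 18.9% for Fbn2 to 45.1% for Mfge8, and the Slc32a1-Cre D1-like shares from 1.04% to 19.7%.

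Nuclei that held a gene held it at levels that differed less between plates than the shares did, for some genes. Among D1-like nuclei with a read, the median level at equal depth in Oprm1-Cre and then Slc32a1-Cre nuclei was 250 and 210 CPM for Mfge8, 180 and 180 CPM for Vcan, and 250 and 200 CPM for Spint1. For Kremen1 it was 140 and 70 CPM, for Spon1 320 and 220 CPM, for Lypd1 60 and 40 CPM, and for Gpc6 80 and 40 CPM. At this depth 1 read is worth 20 CPM, so the Lypd1 and Gpc6 medians amount to a few reads and no change is read from them. Fbn2 was found in only 2 Slc32a1-Cre D1-like nuclei.

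Wells below the minimum held almost no reads of the genes. In the 29 Oprm1-Cre wells that failed the minimum, 22834 reads on genes included 1 read of Spon1, 1 read of Spint1 and 0 reads of the other 6 genes. The 3 failed wells of the Slc32a1-Cre plate held 0 reads of all 8 in 25157. These wells are too shallow for a share at 50000 reads.

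Within the Oprm1-Cre D1-like nuclei, where plate and class are the same for every nucleus, the 8 genes were detected together somewhat more often than their separate shares give. For each of the 28 pairs the nuclei with both genes were divided by the product of the 2 shares times the number of nuclei. The ratio was above 1 for 26 of 28 pairs, with a median of 1.18. Over all evaluable pairs of genes the median was 1.03, itself above 1, so nothing is read from the count of 26. For 10 of 28 pairs, or 35.7%, the ratio was more than 25% above 1, where 12.9% of all 53169917 evaluable pairs of genes were. Among pairs in which both genes had shares within the members' own range (18.9% to 45.1%), 9.52% passed this limit and the median ratio was 1.05. The latter background was added after the values were seen. The genes were named with co-detection in view, so these shares are a description of the 8 genes.

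The pairs past it centred on 4 genes: Kremen1, Lypd1, Mfge8 and Spon1. Mfge8 and Spon1 had the highest ratio, 1.56, with 55 nuclei holding both against 35.2 from the product. Of nuclei with Spon1, 70.5% (59.1 to 80.3) also held Mfge8, against 36.1% (29.7 to 42.8) of nuclei without it. All 6 pairs among Kremen1, Lypd1, Mfge8 and Spon1 were past it: Kremen1 with Spon1 at 1.47, Lypd1 with Mfge8 at 1.36 (79 nuclei against 58.2), Kremen1 with Lypd1 at 1.31, and Kremen1 with Mfge8 and Lypd1 with Spon1 both at 1.30. These 4 genes were singled out after their values were seen. Vcan joined Mfge8 (1.42) and Lypd1 (1.34), and Spint1 joined Spon1 (1.29).

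Fbn2 and Gpc6, the genes with the largest ratios between plates, formed a pair of their own at 1.48, with 19 nuclei against 12.8 from the product. Each of them lay between 0.78 and 1.19 with all of the other 6 genes. The lowest ratio of all was 0.78, for Gpc6 with Vcan (12 nuclei against 15.3), and Spon1 with Fbn2 was the other pair below 1, at 0.95. No nucleus of this group held all 8 genes.

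**Figure D3:**
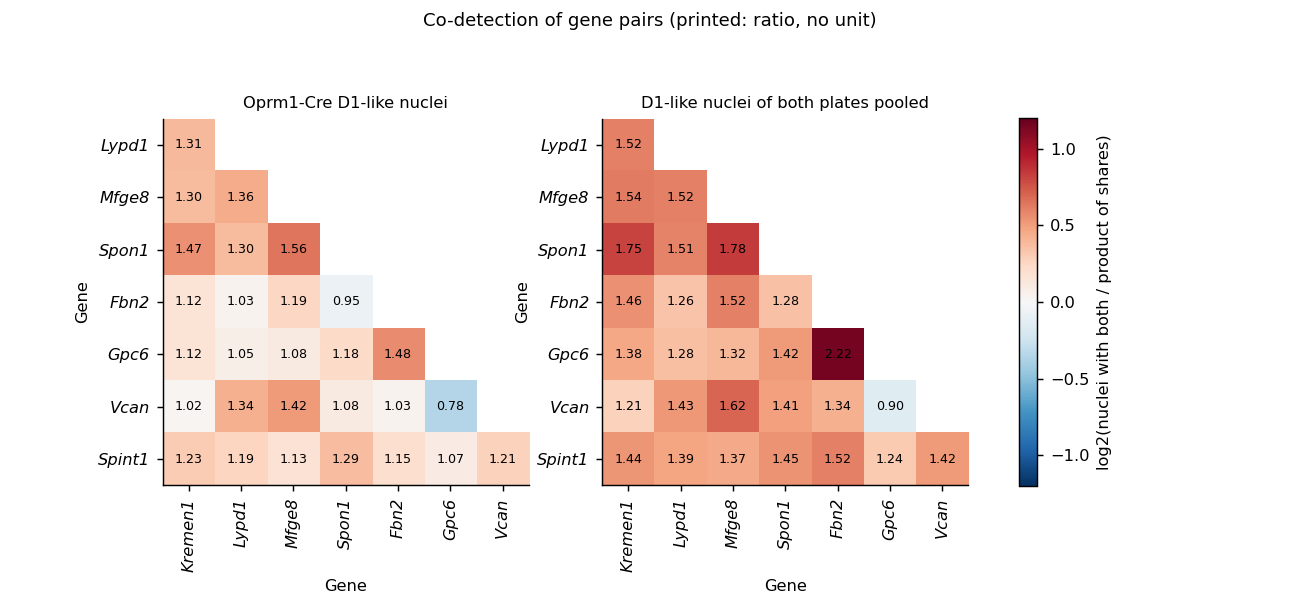
Ratio of nuclei with both genes to the product of their shares, for each of the 28 pairs, in the Oprm1-Cre D1-like nuclei (left) and in the 490 D1-like nuclei of both plates pooled (right); colours give log2 of the ratio, white standing for 1. Red squares on the left gather around Kremen1, Lypd1, Mfge8 and Spon1 and at Fbn2 with Gpc6, and the median rises from 1.18 on the left to 1.43 on the right.

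Pooling the plates raised the ratios, as it must for genes that differ between them. Over 490 D1-like nuclei of both plates, 25 of 28 pairs were more than 25% above the product, with a median of 1.43, where 11.3% of all pairs of genes were and 15.3% of pairs in the members' range of shares. When the product was taken within each plate and then summed, the median over the same nuclei was 1.22 and 12 of 28 pairs were past that limit, where 11.1% of all pairs of genes and 15% of pairs in the members' range of shares were by the same product. Fbn2 with Gpc6 went from 1.48 within the Oprm1-Cre plate to 2.22 pooled, and stood at 1.62 with the product taken within plates. Kremen1 with Spon1 stood at 1.75 pooled and 1.504 with the product within plates, and Mfge8 with Spon1 at 1.78 and 1.58.

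In the Slc32a1-Cre plate, whose nuclei were not selected on Oprm1, few pairs had enough nuclei to be counted. In D1-like nuclei 10 of 28 pairs had at least 3 nuclei by the product, 8 of them were more than 25% above it, and the median was 1.60. All pairs of genes gave 16.3% past that limit, but 33.6% of pairs were where both genes had shares from 6.22% to 19.7%, the range of the members other than Fbn2, which was under the minimum of 5%. Mfge8 had 5 of the 8 pairs: with Spint1 at 1.88 (10 nuclei against 5.32), with Kremen1, Spon1 and Vcan at 1.69 each (8, 7 and 7 nuclei) and with Lypd1 at 1.34 (10 nuclei against 7.48). Lypd1 with Vcan was below 1, at 0.97. Among nuclei in the middle of the class by number of genes, 0 of 2 evaluable pairs were past it, and at 5 or more reads per gene 1 pair was.

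In the Slc32a1-Cre D2-like nuclei 3 of 28 pairs could be counted and all 3 were past the same limit, where 19.2% of all pairs and 35.6% of pairs in the range of shares of the members other than Fbn2 and Gpc6 were. Mfge8 with Spon1 had the highest ratio here too, 2.61, with 11 nuclei against 4.22. Of the 20 nuclei with Spon1, 11 held Mfge8 (interval of the share 31.5% to 76.9%), against 15.7% (9.89 to 23.3) of nuclei without. Lypd1 with Mfge8 stood at 2.07 (7 nuclei against 3.37) and Mfge8 with Vcan at 1.39 (5 nuclei against 3.59). All 3 pairs counted here, Mfge8 with Spon1, Lypd1 with Mfge8 and Mfge8 with Vcan, were past the limit in each of the 3 groups that could be read. The Oprm1-Cre D2-like nuclei were too few: 0 of 23 nuclei held 4 or more of the genes.

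Counted over all 8 genes, nuclei at both ends were more frequent than the product of shares gives. Pairs of all genes also exceeded their product slightly, with medians of 1.03 in Oprm1-Cre D1-like nuclei and 1.04 in Slc32a1-Cre D1-like and D2-like nuclei. No other sets of 8 genes were counted, so the excess is not read as particular to these genes. An Oprm1-Cre D1-like nucleus held 2.52 ± 1.70 of the 8 genes (mean ± SD over the nuclei of 1 plate), and at most 7. Of these nuclei 92 (30.98%, 25.8 to 36.6) held 4 or more, against 64.2 from the product, and 41 held none, against 13.4. The variance of the number was 1.74 times that from the product. Nuclei with 0 of the genes had a median of 3400 genes with a read at equal depth those with 1 to 6 had medians of 3129.5 (3 genes) to 3411 (5 genes), and the 2 nuclei with 7 had 4338. The part of the number of genes per nucleus in these counts was not tested.

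A Slc32a1-Cre D1-like nucleus held 0.95 ± 1.12 of the genes, and a D2-like nucleus 0.76 ± 1.07. In the D1-like nuclei 8 (4.15%) held 4 or more, against 1.51 from the product, and in the D2-like nuclei 3 (2.04%) did, against 0.46. In these 2 groups 86 (44.6%) and 78 (53.1%) nuclei held none, against 69.1 and 64.8. The variance was 1.54 and 1.72 times that from the product. The 3 D2-like nuclei with 5 or 6 of the genes had more genes with a read than the class median of 2823, with medians of 3810 for the 2 with 5 and 4771 for the 1 with 6. In the D1-like nuclei the median was 3040.5 in nuclei with none of the genes, 3784 in the 5 nuclei with 4 and 2403 in the 3 nuclei with 5.

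**Figure D4:**
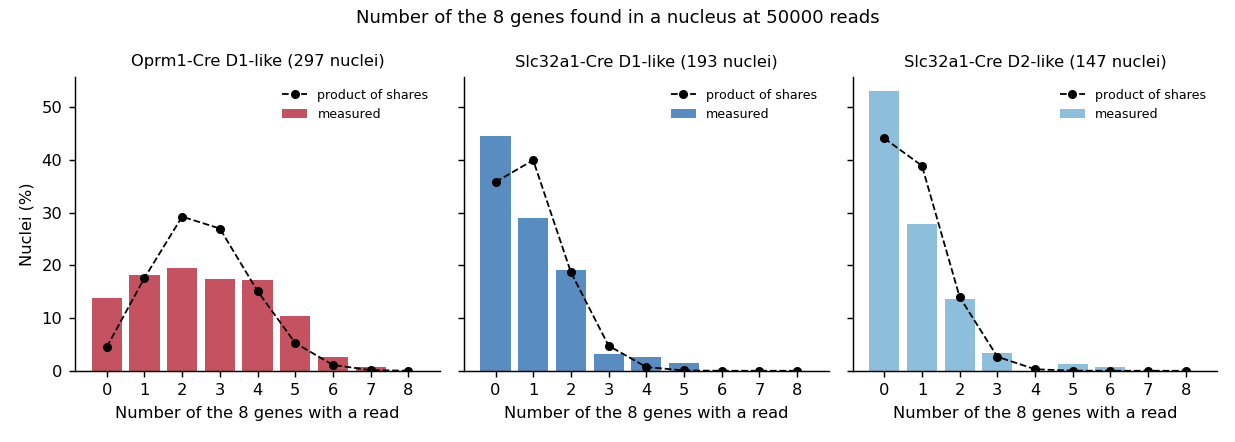
Share of nuclei (%) by the number of the 8 genes with a read at 50000 reads per nucleus (bars), beside the number the product of the 8 shares gives (black points), in 3 groups. In the Oprm1-Cre D1-like nuclei 13.8% held none, against 4.52% by the product, and the bars exceed the points again from 4 genes on.

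The genes were then set beside patch and matrix references that were not among them. Sema5b, a semaphorin, and Oprm1 are references for patches, and Id4, a helix-loop-helix regulator, Epha4, an ephrin receptor, Calb1 (calbindin) and Sv2b, a synaptic vesicle protein, for the matrix. These references also differed between plates in D1-like nuclei: Sema5b stood at 203.5 and 29.9 CPM in the Oprm1-Cre and Slc32a1-Cre plates (log2 ratio 2.58), Oprm1 at 39.3 and 2.82 (2.50), Id4 at 22.3 and 154.1 (-2.54), Epha4 at 178.1 and 443 (-1.29), Calb1 at 310 and 773 (-1.31) and Sv2b at 137.9 and 363.1 (-1.37). Of 9 patch genes other than the 8, 4 were past 1 toward the Oprm1-Cre plate and 0 the other way, the transcription factor genes Nr4a1 (2.23) and Bach2 (1.65) being the other two. Of 9 matrix genes 5 were past 1 toward the Slc32a1-Cre plate, with Gpr155 (-1.57) the fifth, and 0 the other way.

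Inside the Oprm1-Cre D1-like nuclei, nuclei with any of the 8 genes held Sema5b more often and Id4 less often. For Mfge8, Sema5b was found in 75.4% (67.2 to 82.4) of nuclei with the gene and in 49.1% (41.2 to 57.02) of those without. For Kremen1 the shares were 72.5% and 54.3%, and for Lypd1 71.3% and 52.98%. The ratio to the product was between 1.10 (Spint1) and 1.24 (Mfge8) for the 8 genes, with a median of 1.19, and was thus above 1 for 8 of 8, where 50.3% of all genes with enough nuclei were. For Id4 the ratio was below 1 for 8 of 8 genes and below 0.8 for 7 of them, with a median of 0.55. Of all genes with enough nuclei 36.3% were below 1 with Id4 and 13.3% below 0.8. These backgrounds for references and markers were added after the values were seen. Gpc6 had the lowest: Id4 was found in 3 of 68 nuclei with Gpc6 (4.41%, 0.92 to 12.4) and in 14.8% (10.5 to 20.1) of nuclei without.

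The Slc32a1-Cre D1-like nuclei had the same directions. Sema5b was found in 37.5% (18.8 to 59.4) of 24 nuclei with Kremen1 and in 10.1% (5.97 to 15.6) of those without. The ratio could be counted for 4 genes, all of them more than 25% above the product (19.7% of all genes were, and 29.7% of genes in the members' range of shares), and was 2.78 for Kremen1, 1.95 for Lypd1, 1.92 for Spint1 and 1.56 for Mfge8. Id4 was found in 14.3% (3.05 to 36.3) of 21 nuclei with Spon1 and in 50.6% (42.9 to 58.3) of those without. Its ratio was below 0.8 for 7 of 7 genes that could be counted, from 0.18 (Gpc6) to 0.71 (Kremen1), where 5.67% of all genes and 10.7% of genes in the members' range of shares were. In the Slc32a1-Cre D2-like nuclei Id4 was below 0.8 for 4 of 6 genes (7.6% of all genes and 13.2% in the members' range), with a median of 0.54, and Sema5b could be counted with 1 gene, at 2.21.

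**Figure D5:**
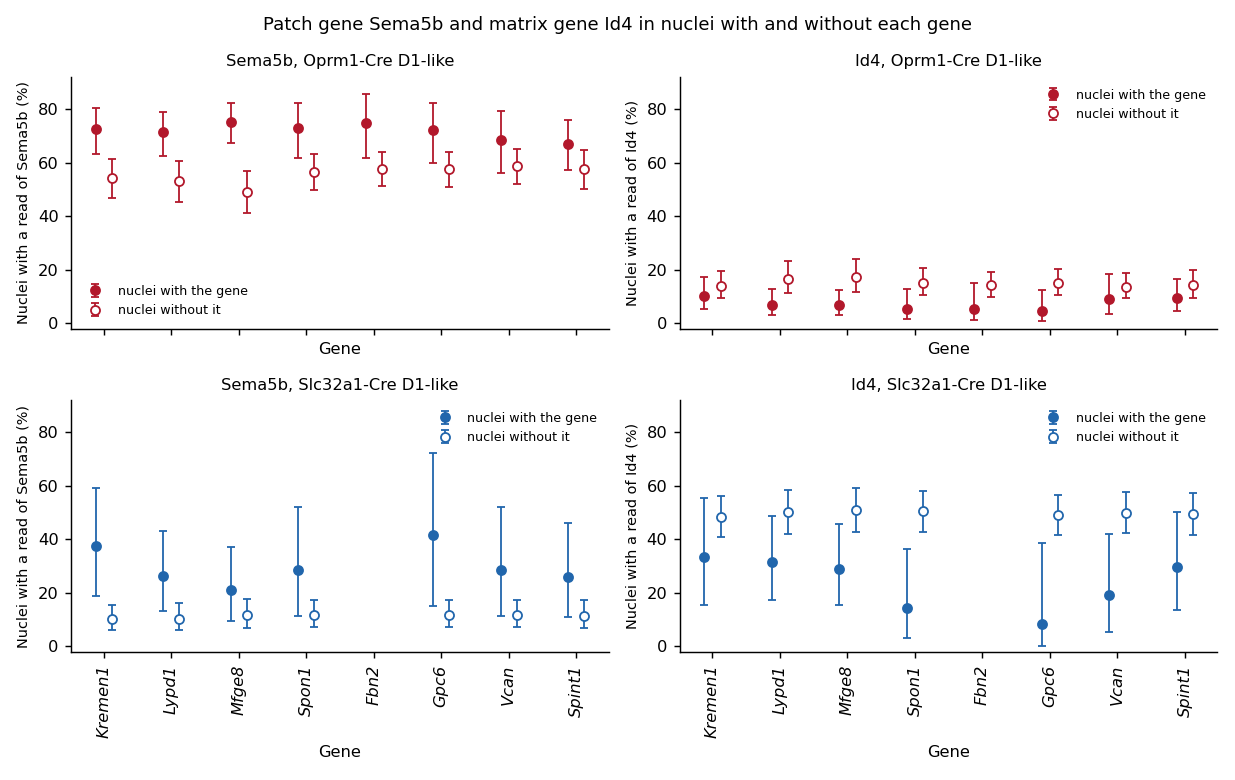
Share of D1-like nuclei (%) with a read of Sema5b (left) or Id4 (right) among nuclei with (filled) and without (open) each of the 8 genes, with exact binomial 95% intervals, in the Oprm1-Cre (top) and Slc32a1-Cre (bottom) plates; Fbn2 is left out below, where 2 nuclei held it. In each pair drawn, the filled point is the higher for Sema5b and the lower for Id4.

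Oprm1 itself did not follow the 8 genes within the Oprm1-Cre D1-like nuclei. Its ratio was between 0.68 (Gpc6) and 1.248 (Lypd1), with a median of 0.97. Oprm1 was found in 34.9% (26.7 to 43.8) of nuclei with Lypd1 and 22.6% (16.5 to 29.7) of those without, and in 19.1% (10.6 to 30.5) of nuclei with Gpc6 and 30.6% (24.7 to 36.98) without. Pooled over plates the median ratio of Oprm1 was 1.23. Pdyn, the gene of the dynorphin precursor, had a median of 1.03 in the Oprm1-Cre D1-like nuclei, Epha4 0.84, Calb1 0.94 and Sv2b 0.88. In the Slc32a1-Cre D1-like nuclei the medians were 1.12 for Pdyn, 0.96 for Epha4, 0.94 for Calb1 and 0.76 for Sv2b.

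Several of the genes are also known in glia, Vcan in oligodendrocyte precursors and Mfge8 in astrocytes. In the Oprm1-Cre D1-like nuclei a read of any of 5 precursor markers was found in 4.48% (0.93 to 12.5) of nuclei with Vcan and 7.39% (4.36 to 11.6) of those without. Vcan had the lowest ratio to the product, 0.66, and Spint1 the highest, 1.26 (8.49% of nuclei with Spint1 and 5.76% of those without), and 4 of the 8 genes were above 1. A read of any of 6 astrocyte markers was found in 22.4% of nuclei with Mfge8 and 23.9% of those without. The summed precursor markers stood at 19.8 CPM in the Oprm1-Cre and 15.03 CPM in the Slc32a1-Cre D1-like nuclei, the astrocyte markers at 78.9 and 50.8 CPM, and the vessel markers at 0.0545 and 0 CPM. None of the 5 precursor markers was at 0 in either plate, and of the astrocyte markers Aqp4 was at 0 in the Slc32a1-Cre plate. Single markers did differ between plates: the precursor marker Pdgfra stood at 7.54 CPM in the Oprm1-Cre D1-like nuclei, with 82.4% of its reads in 1 nucleus, and at 0.0282 CPM (1 read) in the Slc32a1-Cre ones (log2 ratio 1.32), and the oligodendrocyte marker Mog at 6.85 and 0.0282 CPM (1.24). Their part in the levels of the 8 genes was not tested.

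In the Slc32a1-Cre D1-like nuclei other markers were found more often with some of the genes. A read of any astrocyte marker was 1.27 to 1.49 times as frequent as the product with the 3 genes that could be counted. More than 25% above the product were 13.6% of all genes and 23.7% of genes in the members' range of shares. Mfge8 was among the 3 (18.4% of 38 nuclei with Mfge8, 7.74 to 34.3, and 10.97% of those without). A read of any interneuron marker was 1.04 to 1.63 times as frequent with 7 genes, and by more than 25% for 4 of them. By the same limit 9.43% of all genes were, and 16.8% of genes in the members' range of shares. For Lypd1 it was found in 19 of 38 nuclei with the gene (interval 33.4% to 66.6%) and in 32.3% (24.98 to 40.2) of those without. The part of these markers in the pairs of that plate was not tested.

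By correlation across Oprm1-Cre D1-like nuclei, the closest partners of some of the 8 were other members or peptide genes. Pearson's r of log2(CPM + 1) at equal depth was taken with 8979 genes found in at least 10% of the nuclei, and the nuclei share 1 library preparation. Lypd1 was closest to Mfge8 (0.32), which stood at 0.11 and 0.22 in the Slc32a1-Cre D1-like and D2-like nuclei. Tac1, the gene of the tachykinin precursor and 1 of the 7 D1 markers used to class the nuclei, was closest to Mfge8 (0.35, then 0.24 and 0.13) and second for Lypd1 (0.32, then 0.16 and 0.26). Spon1 was closest to Cnr1, the cannabinoid receptor gene (0.32, then 0.16 and 0.22), and next to Cpne9 (0.31, then 0.00 and 0.09).

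Kremen1, Fbn2, Gpc6, Vcan and Spint1 had partners at lower r, and in the Slc32a1-Cre D1-like nuclei these stood between -0.14 and 0.11. Kremen1 was nearest to Spire1 (0.27) and Sec16a (0.25), which stood at -0.14 and -0.10 in the Slc32a1-Cre D1-like nuclei. Fbn2 was nearest to Lamb1, a laminin chain (0.24, then 0.04), and Crim1 (0.23, then 0.10). Vcan was nearest to Dnajc7 (0.25, then 0.11, as high as Lypd1 with Mfge8 there) and Samd10 (0.22, then 0.03). Gpc6 was nearest to Esyt3 (0.23) and Thumpd2 (0.22), and Spint1 to Khdrbs3 (0.21) and Pcsk2 (0.20), which stood between -0.01 and 0.04. In the Slc32a1-Cre D2-like nuclei Fbn2 had 0 reads. The partners of Kremen1, Gpc6, Vcan and Spint1 stood between -0.08 (Sec16a) and 0.09 (Spire1 and Pcsk2) in those nuclei. Correlations of this size in sparse counts are given as a description only.

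Genes that act with the 8 proteins differed between plates in both directions. Of 61 tested genes in 8 lists, 7 (11.5%) were past 1 toward the Oprm1-Cre plate and 7 toward the Slc32a1-Cre plate, with a median ratio of -0.06. Over all measured genes, the share past 1 in D1-like nuclei was 2.85% toward the Oprm1-Cre plate and 1.99% toward the Slc32a1-Cre plate, with a median ratio of 0.00. For Mfge8, 1 of 5 tested genes of 12 (integrins, discoidin proteins and receptors of dying cells) was past 1 toward the Oprm1-Cre plate, Nrp1 (1.07). The other direction held 2 of these genes, Edil3, the other secreted protein of the same domain plan (11.9 CPM in Oprm1-Cre and 147.4 CPM in Slc32a1-Cre D1-like nuclei, -3.18), and Itgav, an integrin chain (-1.11). For Spon1, 1 of 6 tested genes of 12 was past 1, Lrp8, a receptor of the low-density lipoprotein family (1.08, and 1.79 in D2-like nuclei). The D2-like value rests on 23 Oprm1-Cre nuclei, and 9.16% of all genes were past 1 in that contrast. For Vcan, 1 of 9 tested of 19 proteoglycan and perineuronal matrix genes was past 1 in D1-like nuclei, Bcan (brevican, 1.60).

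Among the 8 pathway lists, that of Fbn2 held 3 genes past 1 toward the Oprm1-Cre plate. Of 18 microfibril and TGF-beta binding genes 6 were tested and 3 were past 1: Fbn1 (13.03 and 0.113 CPM, 1.82), Tgfb2 (16.2 and 3.39 CPM, 1.34) and Tgfb3 (12.9 and 2.94 CPM, 1.17). Fbln5, a fibulin, was past 1 the other way (-1.47). The median of the 6 tested genes was 0.84, beside 0.00 over all genes. In D2-like nuclei, 23 of them on the Oprm1-Cre side, Fbn1, Tgfb2 and Tgfb3 were also past 1 toward the Oprm1-Cre plate. There 5 genes of the list were tested, 1 (Ltbp3) was past 1 the other way, and 9.16% of all genes were past 1 toward the Oprm1-Cre plate.

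For the surface proteins, 0 of 8 tested Wnt co-receptor and Dickkopf genes of 19 (Kremen1) were past 1 toward the Oprm1-Cre plate and 1 was past it the other way, Lgr5 (-1.11). The Dickkopf gene Dkk1 was at 0 in both plates. Of 19 Ly6 family and nicotinic receptor genes (Lypd1) 8 were tested, 0 were past 1 toward the Oprm1-Cre plate and 2 toward the other, Cd59a (-1.63) and Chrna7 (-1.03), a nicotinic receptor subunit. Of 21 heparan sulphate proteoglycans and their readers (Gpc6) 14 were tested, with Agrn (agrin, 211.5 and 96.2 CPM, 1.10) past 1 toward the Oprm1-Cre plate and Lrrtm4, a synaptic adhesion protein that binds heparan sulphate (-1.27), toward the other. Of 13 membrane proteases and inhibitors (Spint1) 5 were tested and 0 were past 1 either way, from -0.73 to 0.15.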

How the data were processed

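The authors deposited whole-number read counts per gene and well, 1 table per genotype and 1 joint table, for 24489 genes by symbol, 92 spike-in transcripts and a reporter entry, which were left out of all totals. Joint and single tables agree in every value. Per the submitters' processing notes, SAMtools, Seurat and the build mm10 were used; for aligner, counter, annotation and strandedness, nothing is given in the sources used here. The labels' extraction protocol describes a column kit and a total RNA library kit, and no molecular identifiers are in the files, so PCR copies count as reads and intervals cover counting error only. Columns were matched to samples by names that end in exactly 1 title each, since the labels of the Slc32a1-Cre samples point to a table under the number of the other plate.

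Each plate had 384 wells, of which 355 (Oprm1-Cre) and 381 (Slc32a1-Cre) were kept. The D1-like nuclei numbered 299 and 194 (297 and 193 after thinning), and the D2-like nuclei 23 and 147. Counts were summed per plate and class as CPM with exact Poisson 95% intervals, in Python 3.11.15 with numpy 2.4.6, scipy 1.17.1 and pandas 2.3.3. Nuclei were clustered on 2000 variable genes and 30 components with leidenalg 0.10.2, which gave 8 clusters. A cluster was called spiny-like at a mean spiny marker score of at least 6, a limit set after its values were seen so that the cluster with interneuron genes stayed unnamed; 31 nuclei lay within 0.5 of a limit of the D1 and D2 scores. The 24 possible doublets were kept in the reported values and left out in an alternative. A gene was tested, that is compared, at 5 CPM or more in either group and counted at a log2 ratio past 1, with 5 CPM added. For co-detection each nucleus was thinned to 50000 reads, shares have exact Clopper-Pearson 95% intervals, and a pair was counted where the product of shares gave at least 3 nuclei and the ratio was above 1.25. The background took all pairs of genes found in at least 5% of the same nuclei. The code was tested on simulated data. Named genes were the 8, listed pathway genes past the limit (at most 3 per list and direction, more only where a count is spelled out), 7 compartment references, and the 2 genes with the highest r for each of the 8. The 8 genes, the lists and the limits were chosen with earlier results of these data known. Alternatives changed the added CPM, the call limits, the depth, the reads that count as detection, the classing and the nuclei used.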

Additional observations from a re-analysis of the deposited data

Results flagged for a closer look

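For 6 genes the ratios had opposite signs in D1-like and D2-like nuclei when the plates were compared, or between the plates when the classes were compared, and none of these differences was tested, since each genotype is 1 sample. For the Oprm1-Cre over the Slc32a1-Cre plate, the log2 ratios in D1-like and then D2-like nuclei were 1.64 and -0.51 (Kremen1), 1.501 and -0.17 (Lypd1), 1.10 and -0.88 (Mfge8), 1.503 and -0.79 (Spon1), 1.45 and -0.23 (Vcan), and 1.41 and -0.86 (Spint1). For D1-like over D2-like nuclei, the ratios in the Oprm1-Cre and then the Slc32a1-Cre plate were 1.94 and -0.20 for Kremen1, 1.40 and -0.89 for Spon1, and 1.39 and -0.28 for Vcan. The Oprm1-Cre D2-like side is 23 nuclei throughout. At equal depth its shares of nuclei with Kremen1, Lypd1, Mfge8 and Spon1 were not below those of the Slc32a1-Cre D2-like nuclei. With each nucleus weighed alike, the second value was above 0 for Vcan (0.56) and Spint1 (0.10) in the first set and for Kremen1 (0.01) in the second. Without the nucleus with most reads it was above 0 for Kremen1 (0.01) and Vcan (0.10) in the second set.

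Some nuclei outside both classes held more of a gene than the D1-like and D2-like nuclei of their plate. In the 10 unnamed Oprm1-Cre nuclei Lypd1 stood at 125.1 CPM and Spon1 at 257.3 CPM, with 86.2% of the Spon1 reads in 1 nucleus. In the 23 unnamed Slc32a1-Cre nuclei Spon1 stood at 228.8 CPM and Gpc6 at 34.3 CPM. Gpc6 stood at 163.2 CPM in the 23 undecided Oprm1-Cre nuclei and at 73.3 CPM in the 17 undecided Slc32a1-Cre nuclei. Mfge8 stood at 98.4 CPM in the latter, with 71.6% of the reads in 1 nucleus.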

How the results depend on the processing

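No paired analysis was possible because each genotype is 1 plate with no named animals, and the sample numbers name wells only. Under 9 alternatives for levels and 13 for co-detection no called log2 ratio changed sign. Of the called pairs, 3 fell below the product: Lypd1 with Spint1 in Slc32a1-Cre D1-like nuclei at 2 or more reads (0.62, 2 nuclei against 3.23), and, pooled over plates, Kremen1 with Fbn2 at 20000 reads (0.95) and Fbn2 with Vcan at 5 or more reads (0.28, 1 nucleus against 3.61), and the cause was not tested. The count of genes past 1 in D1-like nuclei between plates fell from 8 to 6 with 20 CPM added and to 7 with each nucleus classed alone. Within the Oprm1-Cre plate it fell from 8 to 7 with each nucleus weighed alike. In the Slc32a1-Cre plate, 2 genes were past a log2 limit of 0.5 toward D1-like nuclei (Spint1 and Gpc6) and 1 was past 1 without the nucleus with most reads (Spint1), against 0 as reported. The pair counts moved more. In Oprm1-Cre D1-like nuclei, 10 pairs as reported became 26 at a ratio above 1 and 1 at a ratio above 1.5, and pooled over plates 25 became 10 at a ratio above 1.5. The median over all evaluable pairs of genes in the Oprm1-Cre D1-like nuclei was itself above 1, at 1.03. In Slc32a1-Cre D1-like nuclei, 8 pairs became 4 at 20000 reads, 16 with no thinning, 4 at 2 or more reads, 1 at 5 or more reads, 3 with at least 5 nuclei by the product, and 0 among the nuclei of middle gene number. In Slc32a1-Cre D2-like nuclei, 3 pairs became 1 at 20000 reads, 1 at 2 or more reads, and 0 at 5 or more reads, with at least 5 nuclei by the product or among nuclei of middle gene number, and the cause was not tested beyond the smaller number of pairs that could be counted. Where pairs could be counted, the median ratio lay between 1.11 and 1.24 in Oprm1-Cre D1-like nuclei and between 1.30 and 1.52 pooled. It lay between 1.11 and 1.90 in Slc32a1-Cre D1-like nuclei and between 1.60 and 2.68 in Slc32a1-Cre D2-like nuclei. In the Slc32a1-Cre plate, 1.90 and 2.68 are each the ratio of 1 pair, and 1.11 is from 2 pairs. Settings with 0 pairs to count in the D2-like nuclei gave no median. Of the values for single genes, 67 of 260 moved by more than their interval, and of those for called pairs, the 3 above aside, 2 of 427. The alternative with a log2 limit of 0.5 cannot change a ratio, and its values are among the 260. At 50000 reads no pair with Fbn2 or Gpc6 could be counted in the Slc32a1-Cre plate, and without thinning Fbn2 was found in 4 D1-like and 0 D2-like nuclei there.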
